A study of Homo sapiens with 9 samples.

Results

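IGROV-1/OHP (OHP) is a platinum-resistant variant of IGROV-1, an established human ovarian carcinoma cell line, and it was set against the parental line it came from. The members are all 18852 genes with a named probe, each represented by its brightest probe, on the 6 arrays of these lines (3 OHP and 3 parental) among 9 arrays in the series. The other 3 arrays hold IGROV-1/Pt1 (Pt1), a variant labelled cisplatin-resistant. The sample labels call OHP oxaliplatin-resistant, whereas the design text names cisplatin for the resistant lines, so the drug that gave rise to OHP is uncertain. All lines share the IGROV-1 background, and the samples were described as separate replicates of exponentially growing cells. Whether OHP is a single clone, and whether drug was present at harvest, is not given in the sources used here. Total RNA had been copied into biotin-labelled cRNA and hybridized to Illumina bead arrays, on which the brightness of a probe (its intensity, in arbitrary units) measures the abundance of a transcript.

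Cisplatin and oxaliplatin are platinum compounds that bind DNA and form crosslinks, which block replication and transcription. Cells can become resistant by taking up less drug or exporting more of it, by binding it to thiols, by repairing or bypassing the lesions, or by not dying from them. Interferon-stimulated genes and NF-kB target genes are known to respond to DNA damage as well as to infection, and both groups encode secreted signals and antiviral proteins.

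Array medians of the deposited intensities ran from 228.2 to 228.34. A background ceiling of 302.1 units was set as the value that 2.5% of the values of 427 olfactory receptor probes exceeded, since these genes are not expected in epithelial cells. Between 10302 and 10517 genes lay above it on each of the OHP and parental arrays. OHP array 2 stood apart from the other OHP arrays. Over all genes its log2 values correlated with those of OHP arrays 1 and 3 at 0.942 and 0.926, against 0.99 between arrays 1 and 3, and with those of parental array 2 at 0.956. On array 2, 4317 genes differed more than 2-fold from the mean of OHP arrays 1 and 3, and in 3541 of them array 2 was the nearer to the parental mean. Between OHP arrays 1 and 3, 163 genes differed more than 2-fold. Counts of called genes are therefore given with all 3 OHP arrays and without array 2. Of the 1020 genes called with 3 OHP arrays, 15 changed their fold by more than 1.5 times without array 2. The values without it are given for some of the leading genes and for genes described here that moved by more than that. With 3 arrays a line, array number sets how precise each value can be.

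Of the 18852 genes, 329 (1.75%) were higher and 691 (3.67%) were lower in OHP than in parental cells by limma at a Benjamini-Hochberg adjusted p under 0.05, fitted to all 9 arrays. The difference was at least 2-fold in 242 higher and 467 lower genes. Without OHP array 2, 1320 genes (7%) were higher and 1828 (9.7%) lower, at least 2-fold in 588 and 776. The counts of each gene list below are to be read against these shares over all genes. All 1020 genes called with 3 OHP arrays were called in the same direction without array 2, and 2128 further genes were called only without it. The OHP and parental arrays did not overlap in 3503 genes (18.6%), and 3020 genes had an unadjusted p under 0.05. Leaving out parental array 1, 2 or 3 lowered the higher genes to 200, 205 or 188 and the lower genes to 428, 408 or 402. Of the called genes, 24 lay at or under the background ceiling in both lines and 282 in 1 line. For the latter the fold is given as a lower bound, namely the geometric mean intensity of the brighter line over the ceiling. Other folds are log2 fold changes from the fit, with their standard error (SE).

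**Figure D1:**
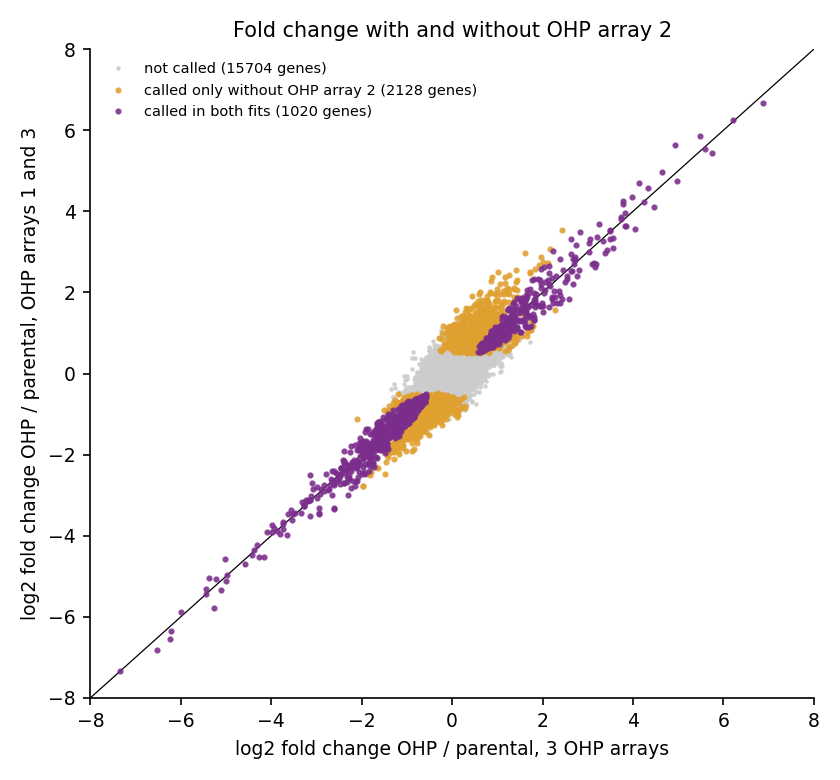
Each point is 1 of 18852 genes, with its log2 fold change of OHP over parental from all 3 OHP arrays on the horizontal axis and from OHP arrays 1 and 3 on the vertical axis. The 1020 genes called in both fits lie along the diagonal, and the 2128 genes called only without array 2 lie mostly farther from 0 on the vertical than on the horizontal axis.

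Among the leading rises was QPRT, the quinolinate phosphoribosyltransferase of NAD synthesis. Its intensities were 267.9, 254.7 and 245.7 in parental arrays 1 to 3 and 14180, 25350 and 18790 in the OHP arrays. OHP was thus at least 62.6-fold higher (adjusted p = 6.64e-07), and at least 54.0-fold without array 2. MAGEA10, a cancer-testis antigen normally restricted to germ cells, read 227.2, 265.0 and 249.4 in parental and 11940, 10670 and 11280 in OHP cells. That is at least 37.4-fold higher (adjusted p = 1.01e-07), with all OHP arrays close together. A dimmer second MAGEA10 probe was not called (log2 fold change 0.89, adjusted p = 0.274). MSLN encodes mesothelin, a surface protein of mesothelial cells and ovarian carcinomas. It read 316.3, 334.8 and 270.9 in parental and 10670, 17870 and 7786 in OHP cells, a log2 fold change of 5.76 (SE 0.28, adjusted p = 3.08e-06) and of 5.43 without array 2. Parental array 3 was under the ceiling.

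CES1, a carboxylesterase that hydrolyses esters and some prodrugs, was at 527.3, 451.7 and 413.9 in parental and at 12140, 15360 and 8171 in OHP cells. The log2 fold change of CES1 was 4.97 (SE 0.26, adjusted p = 4.81e-06), and 4.76 without array 2. Part of its sequence is shared with the pseudogene CES1P1, so the reads of these probes may not be separate, and another CES1 probe was not called (2.19, adjusted p = 0.148). APBB1IP, an adaptor that links RAP1 to integrins, rose from 470.6, 406.9 and 392.1 to 5897, 6465 and 6523. That is a log2 fold change of 4.25 (SE 0.15, adjusted p = 4.27e-07) and of 4.23 without array 2, and the spread within each line was small. The tyrosine phosphatase gene PTPRR was at least 11.01-fold higher and the receptor tyrosine kinase gene AXL at least 10.9-fold. In both, array 2 was the lowest OHP array, with 1312 against 5089 and 5503 for PTPRR and 1546 against 5327 and 4369 for AXL. Without array 2 the bounds were 17.52-fold and 15.97-fold. CPED1 and CT55 were at least 16.1-fold and 15.4-fold higher, ZNF462 at least 7.63-fold, ADGRB3 at least 6.45-fold and ARHGDIB at least 5.33-fold. The acute-phase gene SAA1 rose by 3.84 (SE 0.22, adjusted p = 8.18e-06; 3.65 without array 2), although another of its probes, dimmer, was not called (0.55, adjusted p = 0.536).

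Among the leading falls was SPON1, which encodes the matrix protein spondin 1. Parental arrays read 30570, 15160 and 19510, and OHP arrays 244.3, 225.5 and 206.3, all under the background ceiling. SPON1 was at least 69.0-fold lower in OHP (adjusted p = 4.27e-07), and the SPON1 difference between OHP and Pt1 also passed the test (adjusted p = 3.39e-07). KRT24, a keratin, fell from 38650, 39080 and 30620 to 425.7, 686.7 and 402.2, a log2 fold change of -6.52 (SE 0.27, adjusted p = 1.23e-06) and of -6.82 without array 2. TNFRSF14, the receptor HVEM for the cytokine LIGHT, fell from 15410, 17040 and 13110 to 289.4, 411.2 and 227.2. Only OHP array 2 read above the ceiling, and the fitted log2 fold change of TNFRSF14 was -6.23 (SE 0.28, adjusted p = 2.01e-06), and -6.56 without array 2.

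HBA2, an alpha globin gene, was bright in parental cells (49190, 60540 and 53470) and fell to 1666, 1346 and 1083 in OHP cells. The log2 fold change of HBA2 was -5.44 (SE 0.20, adjusted p = 5.04e-07), with the same value without array 2. Its probe may also detect the near-identical HBA1. No other member of the 14 erythroid markers was called, and HBB, ALAS2, GATA1 and SLC4A1 were at or under the ceiling on all OHP and parental arrays. The globin gene HBE1 was above the ceiling on all OHP arrays and on some parental arrays, and HBG1 on some OHP arrays only. Also lower were APOM (-5.45, adjusted p = 1.51e-06), a lipid carrier of high-density lipoprotein, and CDH17 (-5.37, adjusted p = 6.79e-06), an intestinal cadherin. LBP (-5.22, adjusted p = 3.54e-06), which binds bacterial lipopolysaccharide, and HLA-DMB (-5.12, adjusted p = 1.49e-05), a peptide-loading chaperone of MHC class II, fell too. RELN, the matrix protein reelin, read 347.7, 176.3 and 262.5 in OHP cells, so 2 of the 3 arrays were under the ceiling. Its fitted change of -5.02 (SE 0.35, adjusted p = 2.81e-05) rests on values near background, as does that of CDH17, with OHP array 2 under the ceiling. ANKRD22 was at least 38.04-fold lower, AKAP19 at least 26.4-fold, the peptidase gene DPP4 at least 10.9-fold and the tight-junction gene CLDN7 at least 9.86-fold. For C8G and CA12 (fitted log2 fold changes -5.27 and -4.59) only OHP array 2 exceeded the ceiling. The leading genes were taken from those called in both fits in which the lines did not overlap, so that they do not overlap here follows from the choice.

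**Figure D2:**
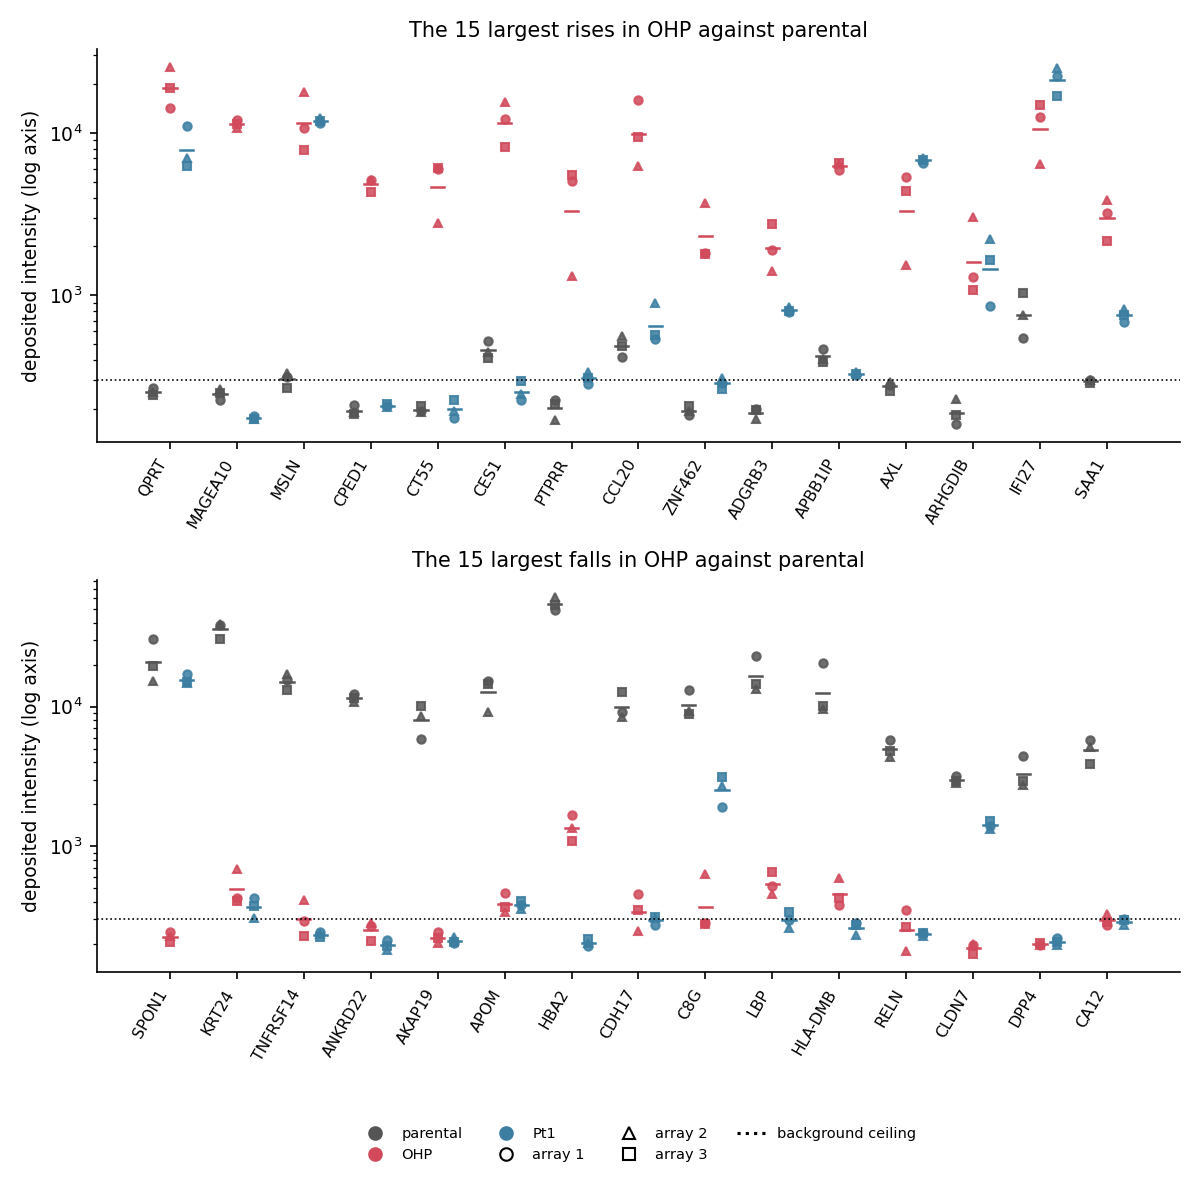
Deposited intensity (log axis) of the 15 genes with the largest rises (top) and falls (bottom) on each parental, OHP and Pt1 array, with horizontal bars at the geometric mean of a line and a dotted line at the background ceiling of 302.1. The 30 genes were chosen among those in which OHP and parental arrays do not overlap, while Pt1 lies with OHP in some (MSLN, KRT24) and with parental cells in others (CPED1, SPON1).

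Interferon-stimulated genes encode antiviral enzymes, RNA sensors and ubiquitin-like modifiers. Of 42 measured, 8 were higher and 3 lower in OHP, and 14 were higher and 3 lower without array 2. The median log2 fold change of the list was 0.45 (0.24 without array 2), beside -0.01 (-0.03) over all genes. IFI27, a mitochondrial protein gene used as an interferon marker, read 549.1, 762.5 and 1038 in parental and 12500, 6407 and 14750 in OHP cells. Its log2 fold change was 3.99 (SE 0.36, adjusted p = 0.000153) and 4.36 without array 2, and array 2 was the lowest OHP array. IFI44 went from 330.5, 364.6 and 404.8 to 1785, 855.1 and 2237, a change of 2.38 (SE 0.37, adjusted p = 0.00478). OASL, which enhances RNA sensing, rose by 1.84 (SE 0.18, adjusted p = 0.000288), and IFIT2, which binds viral RNA, by 1.61 (SE 0.28, adjusted p = 0.00894). OAS2, a synthetase of the second messenger that activates RNase L, was at least 2.23-fold higher (adjusted p = 0.0112, and 0.0549 without parental array 2), with OHP array 2 the highest. Another probe of OASL, dim in part, was not called (0.92). None of the other OAS2 probes was called (0.21, 0.36 and 0.32). Those at 0.21 and 0.36 were at or under the ceiling on all OHP and parental arrays.

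The calls of IFIT3 (1.58), IFI35 (1.10) and the RNA sensor RIGI (0.98) were near the threshold, at adjusted p = 0.0343, 0.013 and 0.0336. Leaving out a single array other than OHP array 2 ended them in 7, 2 and 6 cases, with adjusted p of up to 0.134, 0.0637 and 0.127. With replicate number as a block IFI35 had adjusted p = 0.0509. Leaving out any 1 array other than OHP array 2 gave 4 to 8 higher members, and 3 lower members each time. The members that fell were ISG20, an exonuclease (-1.48, SE 0.20, adjusted p = 0.00217), and the ubiquitin-like ligase genes HERC5 and HERC6. HERC5 read 497.0, 635.5 and 562.4 in parental and 239.5, 223.4 and 275.5 in OHP cells (adjusted p = 0.00263). HERC6 read 472.3, 366.4 and 511.6 in parental and 214.9, 185.9 and 202.4 in OHP cells (adjusted p = 0.00073). In OHP both were at background. OAS1, which makes the same messenger as OAS2, was called only without array 2 (adjusted p = 1.16e-05, at least 3.13-fold) and, with replicate number as a block, at adjusted p = 0.0443.

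NF-kB targets include chemokines and cytokines. Of 35 measured, 7 were higher and 1 lower (13 and 3 without array 2), with a median log2 fold change of 0.29 (0.25). CCL20, which attracts CCR6-bearing lymphocytes, rose from 419.6, 564.0 and 486.1 to 15990, 6279 and 9384. Its log2 fold change was 4.64 (SE 0.35, adjusted p = 5.1e-05), and 4.96 without array 2. CXCL8, the neutrophil attractant interleukin-8, rose from 772.0, 682.3 and 441.7 to 9031, 3785 and 10990 (3.79, SE 0.42, adjusted p = 0.000656, and 4.26 without array 2). CCL2, a monocyte attractant, was at least 2.61-fold higher (adjusted p = 0.000481). IL32 rose by 2.45 (SE 0.22, adjusted p = 0.00019), CXCL2 by 1.81 (SE 0.23, adjusted p = 0.00126) and CCL5 by 1.65 (SE 0.23, adjusted p = 0.00225). IL6 rose by 1.44 (SE 0.34, adjusted p = 0.0399), but its call ended when any 1 of the other 8 arrays was left out (adjusted p 0.0542 to 0.141) and with the block (0.0574). LTB, a membrane-bound cytokine, fell from 1530, 1766 and 625.4 to 235.3, 608.7 and 264.0 (-2.24, adjusted p = 0.0449, and -2.83 without array 2), a call that 7 of the single arrays ended when left out (up to 0.175). IL1A was called only without array 2 (2.72, adjusted p = 0.00306) and with the block (2.13, adjusted p = 0.0418).

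**Figure D3:**
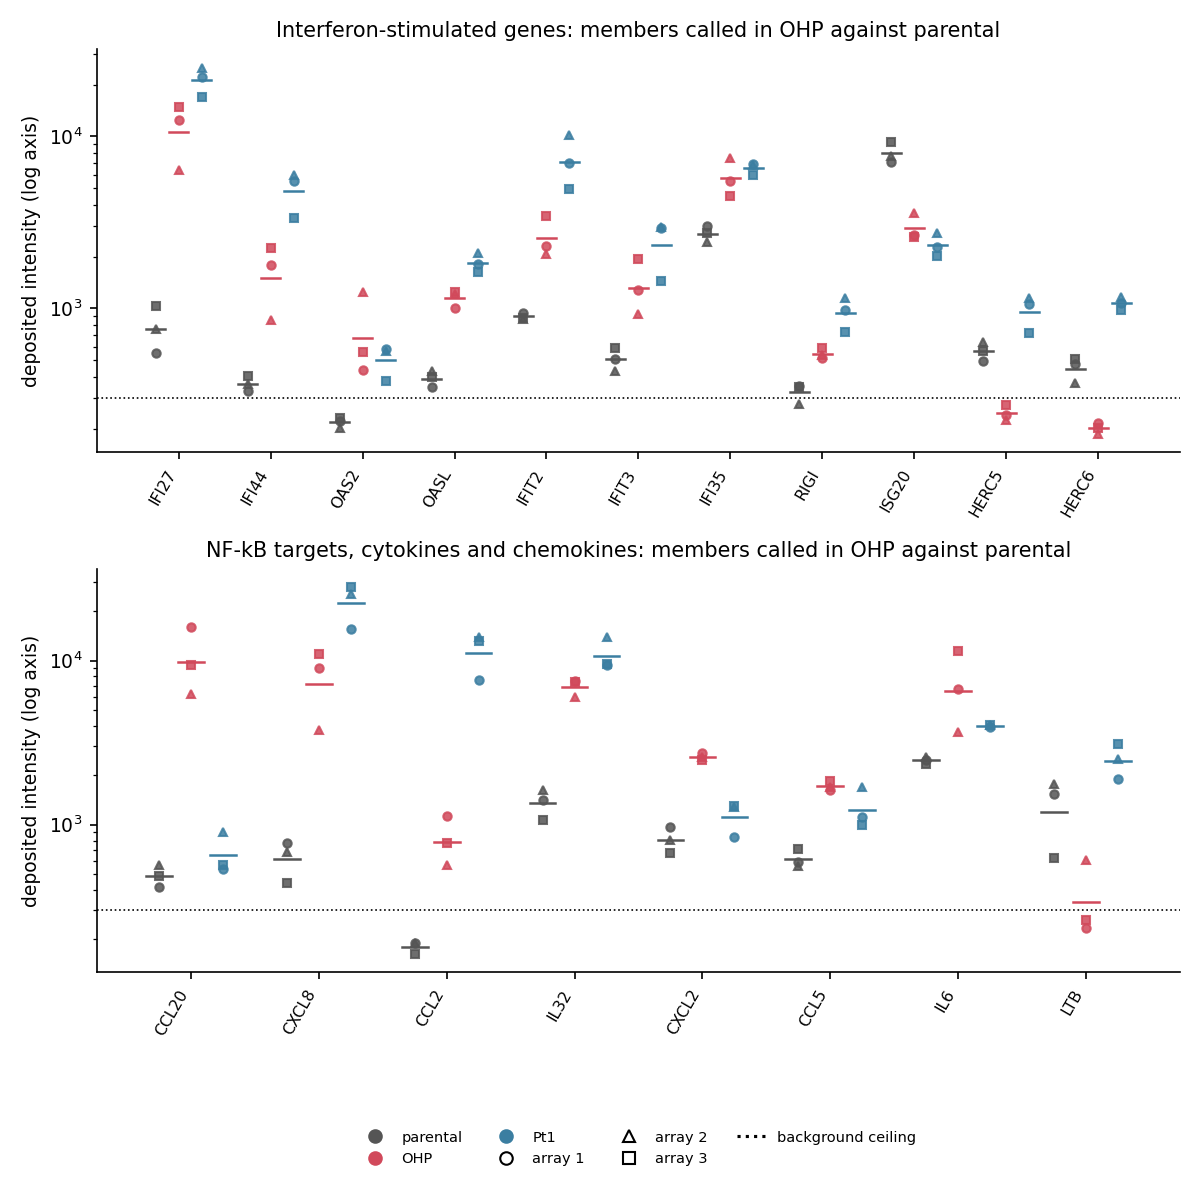
Deposited intensity (log axis) on each parental, OHP and Pt1 array for the called interferon-stimulated genes (top, 11 genes) and NF-kB targets (bottom, 8 genes), with bars at the geometric mean and a dotted line at the background ceiling. OHP array 2 (triangle) is the lowest OHP array for IFI27, IFI44, CXCL8 and IL6 and the highest for OAS2 and IFI35.

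The promoters of these genes were searched for the interferon response element (GAAA, any 2 bases, GAAA) and for the NF-kB motifs GGGA, any 2 bases, TTCC (the spaced motif) and GGAATTTCC, on both strands, in the 250 bases before the start in RefSeq. The NF-kB motifs overlap each other wherever GGAATTTCC follows a G. Promoters were matched for 14873 genes. The interferon element stood in 2.66% of these, in 20 of 35 matched promoters of the interferon list, and in 3 of its 5 matched members that rose. The spaced motif stood in 1.35% of all promoters, in 14 of 26 of the NF-kB list and in 3 of its 5 matched members that rose. GGAATTTCC stood in 0.39% of all promoters, in 12 of 26 of the NF-kB list and in 2 of these 5. Promoters that hold a motif are shown for genes that rose (IFI27, IFIT3, CXCL8, CXCL2, IL32) and for HERC5, which fell and holds 3 interferon elements. The promoter of CCL20, which rose and holds none, is shown beside them. Motif letters are in capitals and each sequence is given from 5′ to 3′ on the strand of its gene. The coordinates are on GRCh38.p14, chr14:94110486-94110735 (plus strand) for IFI27, chr10:89327747-89327996 (plus) for IFIT3, chr4:88456869-88457118 (plus) for HERC5, chr4:73740319-73740568 (plus) for CXCL8, chr4:74099196-74099445 (minus) for CXCL2, chr16:3065153-3065402 (plus) for IL32 and chr2:227813592-227813841 (plus) for CCL20.
IFI27: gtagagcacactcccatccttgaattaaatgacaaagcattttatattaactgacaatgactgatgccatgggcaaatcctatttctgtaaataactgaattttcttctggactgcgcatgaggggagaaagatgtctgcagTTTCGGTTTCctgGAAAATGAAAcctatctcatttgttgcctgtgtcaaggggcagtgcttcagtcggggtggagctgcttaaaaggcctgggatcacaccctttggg
IFIT3: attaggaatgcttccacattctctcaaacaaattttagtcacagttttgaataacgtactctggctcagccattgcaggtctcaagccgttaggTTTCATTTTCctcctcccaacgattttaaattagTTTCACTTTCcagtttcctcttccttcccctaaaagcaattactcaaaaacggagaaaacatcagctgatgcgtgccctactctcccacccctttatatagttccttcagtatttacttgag
HERC5: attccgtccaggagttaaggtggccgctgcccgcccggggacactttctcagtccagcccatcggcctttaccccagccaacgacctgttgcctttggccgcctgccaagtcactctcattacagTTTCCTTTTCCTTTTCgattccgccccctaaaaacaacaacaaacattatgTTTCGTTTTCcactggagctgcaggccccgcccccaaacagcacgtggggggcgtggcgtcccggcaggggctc
CXCL8: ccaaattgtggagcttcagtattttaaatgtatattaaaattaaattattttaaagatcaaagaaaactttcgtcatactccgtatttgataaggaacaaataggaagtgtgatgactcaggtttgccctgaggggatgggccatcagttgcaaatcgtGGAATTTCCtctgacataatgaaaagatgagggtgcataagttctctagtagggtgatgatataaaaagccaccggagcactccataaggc
CXCL2: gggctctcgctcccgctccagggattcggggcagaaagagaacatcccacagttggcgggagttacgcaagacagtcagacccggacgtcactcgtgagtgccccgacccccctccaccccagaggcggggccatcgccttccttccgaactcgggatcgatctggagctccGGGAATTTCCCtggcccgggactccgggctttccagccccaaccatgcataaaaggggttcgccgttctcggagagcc
IL32: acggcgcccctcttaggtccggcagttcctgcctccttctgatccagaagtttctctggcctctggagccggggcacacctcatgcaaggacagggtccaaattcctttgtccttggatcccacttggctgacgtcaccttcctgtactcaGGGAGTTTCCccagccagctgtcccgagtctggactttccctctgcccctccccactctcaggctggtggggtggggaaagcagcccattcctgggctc
CCL20: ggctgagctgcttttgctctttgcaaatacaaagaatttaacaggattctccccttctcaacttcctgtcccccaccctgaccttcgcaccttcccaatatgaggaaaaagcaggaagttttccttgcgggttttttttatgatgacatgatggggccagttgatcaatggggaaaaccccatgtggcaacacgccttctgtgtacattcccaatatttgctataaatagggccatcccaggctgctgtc
A match describes letters in this window only. No motif was found in these 250 bases for CCL20, IFI35 or HERC6.

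Class I antigen presentation, which displays cellular peptides to T cells, had 0 of 19 members called with 3 OHP arrays, and 7 higher and 0 lower without array 2. Over all genes the shares without array 2 were 7% higher and 9.7% lower. With replicate number as a block 1 member was called, ERAP2, a peptidase that trims antigens (1.17, adjusted p = 0.0468, against 0.167 without the block). PSMB9, an immunoproteasome subunit, read 251.4, 248.1 and 332.7 in parental and 1462, 290.7 and 1321 in OHP cells. Its log2 fold change was 1.96 (SE 0.62, adjusted p = 0.126) with array 2 and 2.87 (adjusted p = 5.18e-07) without it. Another PSMB9 probe, dim in part, showed -0.08 with 3 OHP arrays (adjusted p = 0.967). B2M, the class I light chain, read 16950, 6964 and 25040 in parental and 50840, 4459 and 49980 in OHP cells. HLA-B, a class I heavy chain, read 5993, 2986 and 6648 in parental and 12110, 2522 and 16370 in OHP cells. In both genes the arrays numbered 2 were the lowest of their lines. Without OHP array 2 the changes were 1.82 for B2M (adjusted p = 0.00447) and 1.54 for HLA-B (adjusted p = 0.00239).

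Among 20 genes of platinum uptake and efflux, 1 was higher and 5 lower (4 and 6 without array 2). The shares over all genes were 1.75% higher and 3.67% lower (7% and 9.7% without array 2). SLC47A1, an extruder of organic cations, fell from 1940, 2278 and 2438 to 280.8, 237.4 and 246.2 and was at least 7.31-fold lower (adjusted p = 3.16e-06). Its relative SLC47A2 was at least 1.75-fold lower (adjusted p = 0.00266). The efflux pump ABCC3 fell from 24790, 20710 and 15790 to 2194, 3941 and 1544 (-3.14, SE 0.33, adjusted p = 0.000442). ABCB1, the P-glycoprotein pump, fell by 2.62 (SE 0.25, adjusted p = 0.000252). ATP7B, a copper exporter that can carry platinum, fell by 2.09 (SE 0.23, adjusted p = 0.000568), although a dimmer ATP7B probe was not called (-0.40). ABCC2, a pump for glutathione conjugates, was the member that rose, from 298.7, 286.8 and 260.6 to 859.4, 1607 and 845.1, at least 3.49-fold (adjusted p = 0.00119). The copper importer SLC31A1 was not called (-0.23, adjusted p = 0.927), nor was ATP7A (-0.08, adjusted p = 0.92). ABCG2 was at background in both lines. SLC22A2, a cation importer, had adjusted p = 0.0558, 0.0444 with the block and 0.0183 without array 2. At its levels of 311.5, 504.8 and 314.2 in OHP it lay just above the ceiling.

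Among thiol and detoxification genes the changes were mixed. Of 39 glutathione, thioredoxin and NRF2 target genes, 1 was higher and 4 lower (5 and 5 without array 2), and with the block 2 were lower. AKR1C3, a ketosteroid reductase, rose from 1961, 1911 and 2567 to 16170, 10710 and 13870 (2.71, SE 0.20, adjusted p = 4.54e-05). AKR1C2, whose sequence is close to that of AKR1C3, read 6767, 6953 and 8865 in parental and 4813, 4237 and 3719 in OHP cells (-0.83, adjusted p = 0.0216, but 0.104 with the block and up to 0.0919 without a single array). NQO1, a quinone reductase and NRF2 target, fell from 60860, 62070 and 68560 to 26350, 14330 and 26450 (-1.57, SE 0.23, adjusted p = 0.00365). The glutathione transferase gene GSTP1 read between 60590 and 66390 on all 6 arrays (-0.01, adjusted p = 0.99). The metal-binding gene MT2A rose by 1.41 (SE 0.25, adjusted p = 0.00977, and 0.0536 without parental array 3), while MTF1, the transcription factor of metallothioneins, fell by 1.21 (SE 0.18, adjusted p = 0.00428).

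None of 28 homologous recombination and Fanconi genes passed the test in either fit. Over all genes the shares were 1.75% higher and 3.67% lower. For BRCA1, which acts in homologous recombination, the log2 fold change was 0.24 (adjusted p = 0.627). In nucleotide excision repair, 0 of 27 were higher and 2 lower (2 and 3 without array 2). Of 21 mismatch repair and translesion genes 0 were called, and 2 were higher and 0 lower without array 2. ERCC1, a subunit of the nuclease that cuts beside platinum lesions, fell from 13880, 10100 and 10520 to 5238, 3697 and 5824 (-1.25, SE 0.21, adjusted p = 0.00726). Of the other ERCC1 probes, 2 dimmer ones were not called (-0.29 and -0.72) and another was called lower (-1.01, adjusted p = 0.0264). The ERCC1 call ended with only the OHP and parental arrays, and with the mean over all its probes. RPA1, which coats single-stranded DNA, had a change of -0.84 (adjusted p = 0.0432, but 0.137 with the block and up to 0.162 without a single array).

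Of 29 measured targets of the p53 pathway, 1 was higher and 6 lower (3 and 10 without array 2), with a median of -0.22 (-0.21). Over all genes lower calls also outnumbered higher ones, 3.67% against 1.75%. CDKN1A, the cyclin-dependent kinase inhibitor p21, fell from 14140, 16450 and 17630 to 1293, 998.8 and 1036. Its log2 fold change was -3.98 (SE 0.20, adjusted p = 3.54e-06). FAS, a death receptor, fell by 2.41 (SE 0.23, adjusted p = 0.000244, with 2 of 3 OHP arrays under the ceiling), and TP53INP1 was at least 2.07-fold lower (adjusted p = 0.00046). The proapoptotic gene BAX fell by 1.32 (SE 0.25, adjusted p = 0.0133, up to 0.0615 without a single array). The other BAX probes were not called (-0.80 and -0.08), the latter at or under the ceiling on all OHP and parental arrays. MDM2, the p53 ubiquitin ligase, also under the ceiling on 2 of 3 OHP arrays, was called at -1.01 (adjusted p = 0.036), but not with the block (0.0588), and leaving out a single array gave up to 0.131. PLK2 rose by 1.41 (adjusted p = 0.0108, up to 0.0565 without a single array). Leaving out 1 array other than OHP array 2 gave 3 to 6 lower members. GDF15 was not called (-0.88, adjusted p = 0.356).

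Of 48 cell cycle genes 1 was higher and 2 lower (5 and 2 without array 2), shares near those over all genes. CDK6, a G1 kinase, fell from 2553, 2192 and 2878 to 251.5, 206.1 and 311.8, a fitted log2 fold change of -3.98 (SE 0.24, adjusted p = 1.05e-05). Of these OHP arrays 2 were under the background ceiling and the other just above it. The mitotic kinase gene AURKB fell by 1.04 (SE 0.18, adjusted p = 0.00907). The proliferation markers MKI67 (-0.16, adjusted p = 0.772) and TOP2A (0.06, adjusted p = 0.93) were not called. The antiapoptotic gene BCL2 read 1018, 1084 and 1214 in parental and 536.2, 727.6 and 643.8 in OHP cells (-0.91, adjusted p = 0.0232, but 0.0569 with the block and up to 0.103 without a single array). BCL2L1 was not called (-0.34, adjusted p = 0.399).

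In growth factor signalling, 6 of 44 receptor tyrosine kinases and ligands were higher and 5 lower (7 and 9 without array 2). All genes together had 1.75% higher and 3.67% lower (7% and 9.7% without array 2). Besides AXL, its ligand GAS6 rose from 442.3, 711.8 and 546.3 to 2271, 5487 and 2191 (2.67, SE 0.36, adjusted p = 0.00188). The collagen receptor DDR2 rose by 1.88 (SE 0.22, adjusted p = 0.000852) and the ephrin EFNA1 by 1.83 (SE 0.26, adjusted p = 0.00271). ERBB3 fell by 1.76 (SE 0.30, adjusted p = 0.00882), the EGFR ligand TGFA by 1.68 (SE 0.26, adjusted p = 0.00432) and PDGFB fell by 2.10 (SE 0.24, adjusted p = 0.000717). EGFR (0.29, adjusted p = 0.629) and ERBB2 (0.47, adjusted p = 0.58) were not called. The MAP kinase feedback genes SPRY2 (-1.44, SE 0.25, adjusted p = 0.00857) and DUSP5 (-1.12, SE 0.18, adjusted p = 0.00572) fell. Around the PI3K pathway, INPP4B, a lipid phosphatase, rose from 439.4, 460.1 and 423.2 to 5143, 4070 and 4810 (3.73, SE 0.19, adjusted p = 3.54e-06). The kinase gene SGK1 fell by 3.23 (SE 0.20, adjusted p = 1.52e-05) and DEPTOR, an mTOR inhibitor, by 2.51 (SE 0.23, adjusted p = 0.000165).

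Of 33 epithelial adhesion genes, 0 were higher and 5 lower (3 and 7 without array 2). For this list and those that follow, the shares over all genes were 1.75% higher and 3.67% lower (7% and 9.7% without array 2). EPCAM, an epithelial surface glycoprotein, read 19920, 16640 and 25000 in parental and 3640, 1030 and 3666 in OHP cells. The change was -3.14 (SE 0.46, adjusted p = 0.00319), and -2.50 without array 2, the lowest OHP array. The junction gene JUP fell by 1.48 (SE 0.17, adjusted p = 0.000717). E-cadherin, CDH1, was called only without array 2 (-1.27, adjusted p = 0.00102). Of 16 keratins 2 were higher and 3 lower (3 and 5 without array 2). KRT80 (1.81, SE 0.30, adjusted p = 0.00728) and KRT7 (1.2, adjusted p = 0.0286, up to 0.0911 without a single array) rose. Another KRT80 probe, above the ceiling on all OHP and parental arrays, was not called (1.15, adjusted p = 0.141). KRT19 fell from 62900, 66710 and 63880 to 20650, 12380 and 17370 (-1.98, SE 0.20, adjusted p = 0.000291). Vimentin, VIM, a mesenchymal filament, read 53470, 27930 and 38500 in parental and 43540, 7833 and 50330 in OHP cells and was not called (-0.59, adjusted p = 0.755). Of 31 integrins and laminins 1 was higher and 4 lower (5 and 7 without array 2). The collagen receptor subunit ITGA2 fell by 3.10 (SE 0.32, adjusted p = 0.00041) and ITGB7 by 1.93 (SE 0.30, adjusted p = 0.00441). ACTA2, smooth muscle actin, fell by 1.64 (SE 0.15, adjusted p = 0.000181).

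Markers of the labelled cell type were present in part, 16 of 29 above the ceiling on all arrays of each line. PAX8, a transcription factor of Müllerian epithelium, was above the ceiling on every array (8633 to 28350) and was not called (-0.11, adjusted p = 0.943). WT1, another marker of serous ovarian cells, was at background on all parental and OHP arrays. Of 29 ovarian and mesothelial markers 1 was higher, MSLN, and 4 were lower (2 and 8 without array 2). FOLR1, the folate receptor, fell by 2.36 (SE 0.25, adjusted p = 0.00042), SPP1, osteopontin, by 2.61 (SE 0.31, adjusted p = 0.000882), and of the kallikreins KLK10 fell by 3.19 (SE 0.26, adjusted p = 9.42e-05, with 2 of 3 OHP arrays under the ceiling) and KLK11 fell by 1.78 (SE 0.30, adjusted p = 0.00742). None of 17 leucocyte, 14 fibroblast and 12 endothelial markers was called with 3 OHP arrays. Without array 2, 1 leucocyte, 1 fibroblast and 1 endothelial marker were lower and 1 endothelial marker higher, and with the block VWF, the von Willebrand factor of endothelial cells, was higher (1.75, adjusted p = 0.0183, against 0.0748 without the block). The summed intensity was 7020 to 7402 in parental and 4454 to 9892 in OHP cells for leucocyte markers. It was 64823 to 69369 and 15959 to 49382 for fibroblast markers, and 3444 to 5143 and 6196 to 12904 for endothelial markers. The defining genes PTPRC, PDGFRB and KDR were at background on all 6 arrays. Other members were above the ceiling on all 6 arrays, namely CD68 (leucocyte), PDGFRA, THY1 and S100A4 (fibroblast), and PECAM1, VWF and ESAM (endothelial). LYZ, a leucocyte marker, was above it on all OHP arrays. The part of such cells in the results was not tested. In bulk samples a smaller share of cells expressing a gene and less RNA per cell cannot be told apart.

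In lipid handling, 4 of 31 genes were higher and 1 lower (7 and 5 without array 2). Beside this and the next lists, all genes had 1.75% higher and 3.67% lower (7% and 9.7% without array 2). PPARG, the nuclear receptor of adipocyte genes, rose from 590.4, 510.3 and 444.4 to 5306, 7602 and 5206 (3.82, SE 0.23, adjusted p = 9.78e-06, and 3.64 without array 2). CD36, a fatty acid carrier, was at least 1.91-fold higher (adjusted p = 0.000343), and the elongase gene ELOVL6 rose by 1.52 (SE 0.22, adjusted p = 0.00283). Another ELOVL6 probe, dim in part, was not called (0.64, adjusted p = 0.772), nor was the mean over the ELOVL6 probes. FABP6 fell by 1.16 (SE 0.17, adjusted p = 0.00316). Of 36 glycolysis and hypoxia genes, 0 were higher and 3 lower (7 and 3 without array 2). ENO2, the neuronal enolase, fell from 3661, 4804 and 3528 to 252.3, 468.1 and 275.0 (-4.15, SE 0.30, adjusted p = 3.89e-05, with only OHP array 2 above the ceiling). CA12, a carbonic anhydrase induced by hypoxia, is among the largest falls. Of 24 heat shock chaperones 3 were higher and 0 lower (6 and 1 without array 2). CRYAB, alpha B crystallin, rose from 534.5, 630.2 and 829.5 to 4841, 3559 and 5668 (3.02, SE 0.29, adjusted p = 0.000263), and HSPB8 rose by 1.36 (SE 0.21, adjusted p = 0.00433). Of 35 genes of the unfolded protein response and 38 of ribosome biogenesis 0 were called, and without array 2, 3 were higher and 3 lower of the former and 1 higher and 2 lower of the latter.

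Of 29 aldehyde dehydrogenases and stem cell markers, 0 were higher and 6 lower (3 and 12 without array 2). The shares over all genes were 1.75% higher and 3.67% lower (7% and 9.7% without array 2). NES, the filament protein nestin, fell from 982.9, 2591 and 1955 to 202.1, 233.9 and 198.0 and was at least 5.65-fold lower (adjusted p = 0.00014). SOX9, a progenitor transcription factor, fell by 2.24 (SE 0.43, adjusted p = 0.0149, and 0.0624 without parental array 1). ALDH3A1 was at least 1.49-fold lower (adjusted p = 0.00245), and the hyaluronan receptor CD44 fell by 0.93 (SE 0.16, adjusted p = 0.00951). In complement and innate defence, 5 of 32 were higher and 2 lower (9 and 3 without array 2). C3, the central complement component, was at least 2.74-fold higher (adjusted p = 0.000448), although a dimmer C3 probe was not called (-0.03). C1S, a complement protease, rose by 1.94 (SE 0.26, adjusted p = 0.00197) and PI3, an elastase inhibitor, by 1.64 (SE 0.24, adjusted p = 0.0035).

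Among 36 cancer-testis antigens 4 were higher and 2 lower (6 and 3 without array 2). Besides MAGEA10 the higher ones were CT45A3 (2.20, SE 0.19, adjusted p = 0.000102), SSX1 (1.97, SE 0.31, adjusted p = 0.00528) and MAGEC2 (1.71, SE 0.27, adjusted p = 0.00471). These belong to families of near-identical copies whose probes may not separate them. PRAME fell from 4175, 5708 and 5210 to 2396, 2218 and 1926 (-1.24, SE 0.17, adjusted p = 0.00248), and CTAG2 was at least 1.88-fold lower (adjusted p = 0.00265). Among 22 imprinted genes 1 was higher and 2 lower (3 and 3 without array 2). PEG10 was at least 1.83-fold lower (adjusted p = 0.000107) and PLAGL1 at least 1.22-fold (adjusted p = 0.00168).

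**Figure D4:**
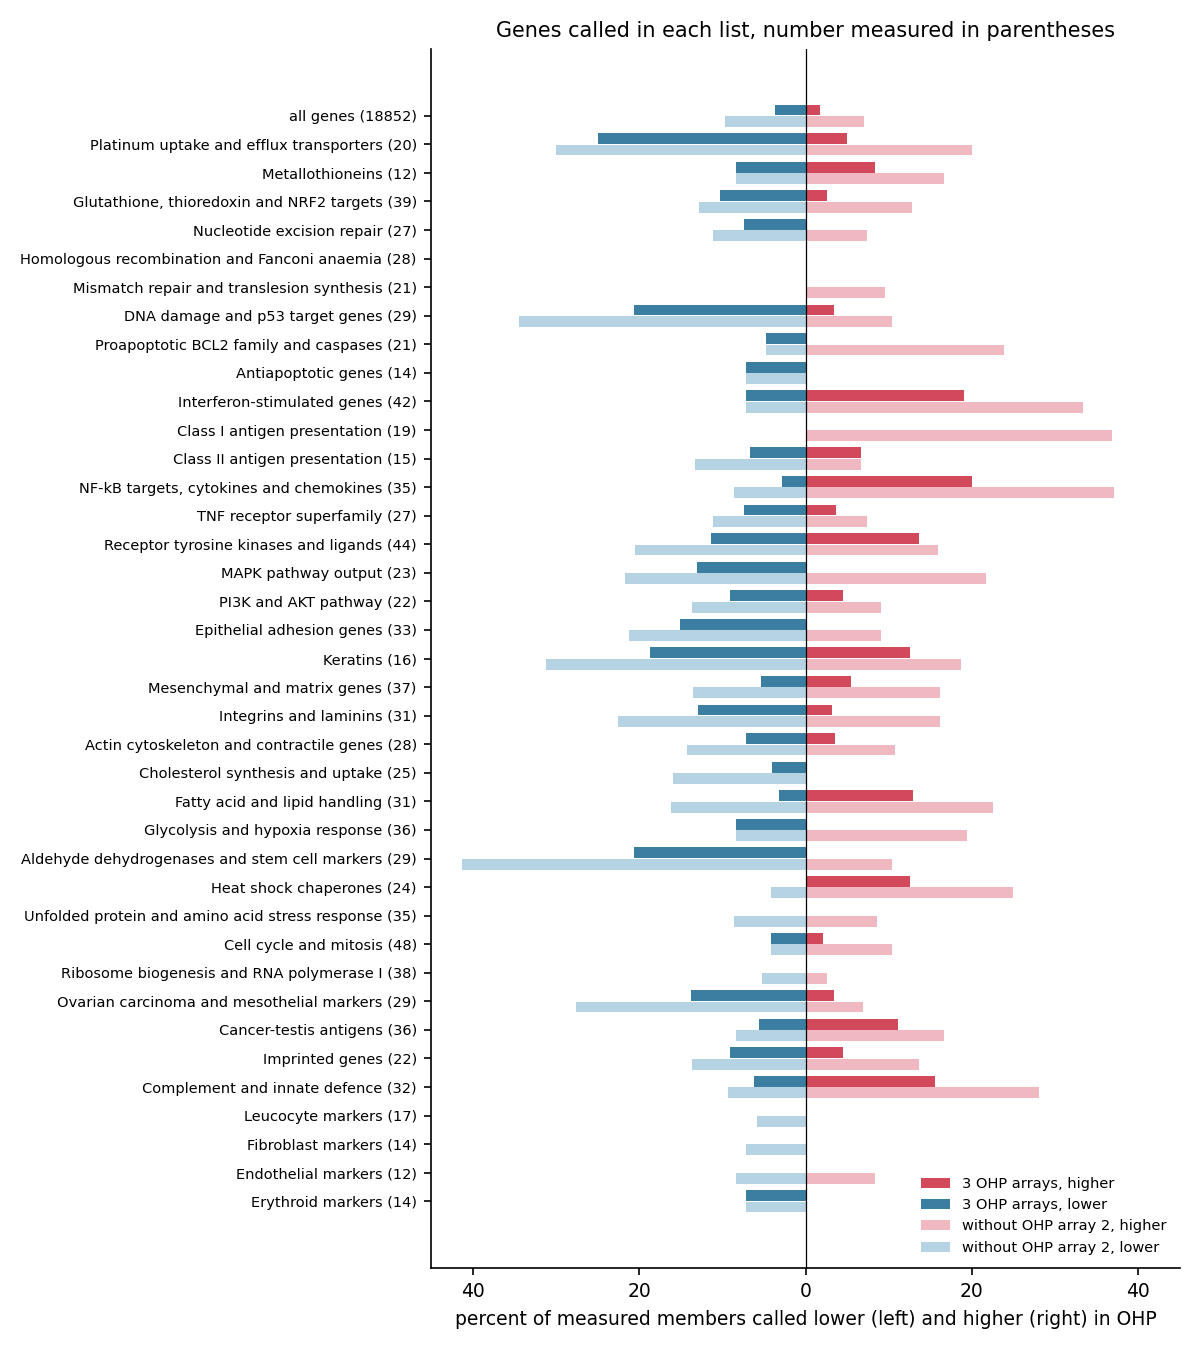
Percent of the measured members of each gene list called higher (right) or lower (left) in OHP than in parental cells, with 3 OHP arrays (dark bars) and without array 2 (light bars), and all 18852 genes in the top row for comparison. Homologous recombination genes show no bar, and class I antigen presentation has a bar only without array 2.

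The genes called only without array 2 were chosen for a call that this array ended. That array 2 lies towards the parental arrays in most of them therefore follows in large part from the choice. Of the 2128, array 2 was nearer to the parental mean than to the mean of OHP arrays 1 and 3 in 1758, and in 1277 it lay on the other side of the parental mean. LITAF, a lysosomal membrane protein gene, read 1198, 855.3 and 1900 in parental and 10130, 1467 and 17630 in OHP cells. Its log2 fold change was 2.44 (SE 0.78, adjusted p = 0.127) with array 2 and 3.53 (adjusted p = 4.84e-06) without it. PGM1, which interconverts glucose phosphates, read 2820, 1284 and 3700 in parental and 16830, 2894 and 22180 in OHP cells (3.08 without array 2, adjusted p = 4.2e-05). Among the lower genes, PTK7, a catalytically inactive receptor kinase, read 2186, 2299 and 1448 in parental and 371.9, 1501 and 357.4 in OHP cells (-2.78 without array 2, adjusted p = 8.74e-07). The fibroblast growth factor receptor FGFR4 read 6800, 9503 and 6826 in parental and 1777, 5632 and 1475 in OHP cells (-2.30 without array 2, adjusted p = 4.59e-06). Each of these was also called with all 3 arrays when replicate number was a block, at adjusted p = 0.0227, 0.00742, 0.0343 and 0.0226. Of the 16 genes taken from this group, LITAF, PGM1, GNG12, PSMB9, PSG3, IL1A, OAS1 and CES1P1 were higher, and PTK7, MLXIPL, MST1, TAOK1, PAK6, SGCE, ZDHHC11 and FGFR4 lower, without array 2. MLXIPL, MST1, PAK6 and ZDHHC11 also passed with the block, at adjusted p = 0.0191, 0.0347, 0.00955 and 0.0227.

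The genes farthest from OHP arrays 1 and 3 on array 2 were ranked by that distance, so their values are a description. ZNF223, a zinc finger gene, read 1614, 2966 and 1804 in parental and 1383, 10950 and 758.2 in OHP cells. TNFSF14, the ligand of TNFRSF14, read 2227, 3787 and 2540 in parental and 2314, 22770 and 1257 in OHP cells. In the other direction CCNC, cyclin C, read 1824, 705.4 and 2276 in parental and 4040, 321.7 and 6347 in OHP cells. OSTC, a subunit of the oligosaccharyltransferase, read 12190, 4726 and 15440 in parental and 24430, 1381 and 32220 in OHP cells. In all 4 genes parental array 2 was shifted the same way as OHP array 2, by less. The other genes high on array 2 were RAX2, LTB4R, PLA2G2D, DCLRE1C, PCDHB19P and NUBPL, and the other low ones GNG10, ATP1B3, CRTAP, PSMC4, TMED10 and APOBEC3B. The source of the difference was not tested.

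The difference of OHP from parental cells was set against that of Pt1 by testing OHP against Pt1, in which the parental arrays cancel. That test called 1430 genes (7.59%). Of the 1020 genes called in OHP against parental, 366 also differed from Pt1 in the same direction, 53 differed in the opposite direction and 601 were not called against Pt1. In MAGEA10, CES1, CPED1 and CT55 all Pt1 arrays were under the ceiling, and the folds over Pt1 are lower bounds. OHP was at least 37.4-fold higher for MAGEA10 (adjusted p = 2.75e-08) and at least 38.1-fold for CES1 (adjusted p = 7.78e-07). The bounds were 16.1-fold for CPED1 (adjusted p = 9.35e-08) and 15.4-fold for CT55 (adjusted p = 4.64e-06). CCL20 was higher than in Pt1 by 4.13 log2 units (adjusted p = 7.15e-05). SLC47A1, at background in OHP, was at least 8.87-fold lower than in Pt1 (adjusted p = 1.02e-06). CDK6 (-3.87, adjusted p = 7.38e-06), ENO2 (-4.47, adjusted p = 1.48e-05) and ZMYM6 (-3.96, adjusted p = 1.31e-06) were lower than in Pt1, each with at least 1 OHP array under the ceiling. The differences from Pt1 of MSLN (-0.05, adjusted p = 0.939) and AXL (-1.07, adjusted p = 0.161) did not pass the test. CCL2 was lower in OHP than in Pt1 (-4.01, adjusted p = 5.23e-05), although above parental cells in both.

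Neighbouring genes were compared by their order along each chromosome, using 9196 genes above the ceiling on all OHP and parental arrays. The log2 fold changes were taken as medians over windows of 10 genes, and stretches whose windows reached 0.7 in size in both fits were listed. This search was made after the values were seen, and the stretches were chosen for their size, so the counts are a description. Of the 8989 window medians, 95% lay between -0.50 and 0.43. On chromosome 17, the 113 genes from the start of the short arm up to COX10 had a median of -0.79 (-0.82 without array 2), and 107 of them had a negative value. Of these, 31 were called lower and 0 higher (75 and 0 without array 2), against 15 lower and 9 higher of the 445 genes on the rest of the chromosome. The median in Pt1 over the same 113 genes was -0.04. GPS2, a corepressor subunit gene in this stretch, read 3434, 4418 and 4601 in parental and 1929, 2346 and 1418 in OHP cells (-1.19, SE 0.22, adjusted p = 0.0138). AURKB, CLDN7 and RPA1 are on the same arm.

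On chromosome 5, the 35 genes from CCDC127 to MTMR12, at the start of the short arm, had a median of -0.82 (-0.84 without array 2) and 0.05 in Pt1, with 15 lower and 0 higher (26 and 2 without array 2). SDHA, a subunit of succinate dehydrogenase, read 8672, 8598 and 12470 in parental and 4569, 2393 and 4434 in OHP cells (-1.45, SE 0.27, adjusted p = 0.0127). On chromosome 1, the 18 genes from ZMYM1 to OSCP1 had a median of -0.75 (-0.08 in Pt1), with 5 lower and 0 higher (12 and 0 without array 2). On chromosome 19, the 16 genes from CLDND2 to ZNF525, mostly zinc finger genes, had a median of -0.78, and in Pt1 the median was -0.82, with 5 lower and 0 higher (13 and 0 without array 2). The 18 genes from MAP2K2 to PLIN3 on the same chromosome were higher, with a median of 0.86 (0.69 without array 2) against 0.07 in Pt1, and 6 of them were called higher and 0 lower (11 and 1 without array 2). GPS2 and SDHA were looked at without OHP array 2 but not without any other single array. Copy number was not analysed here.

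**Figure D5:**
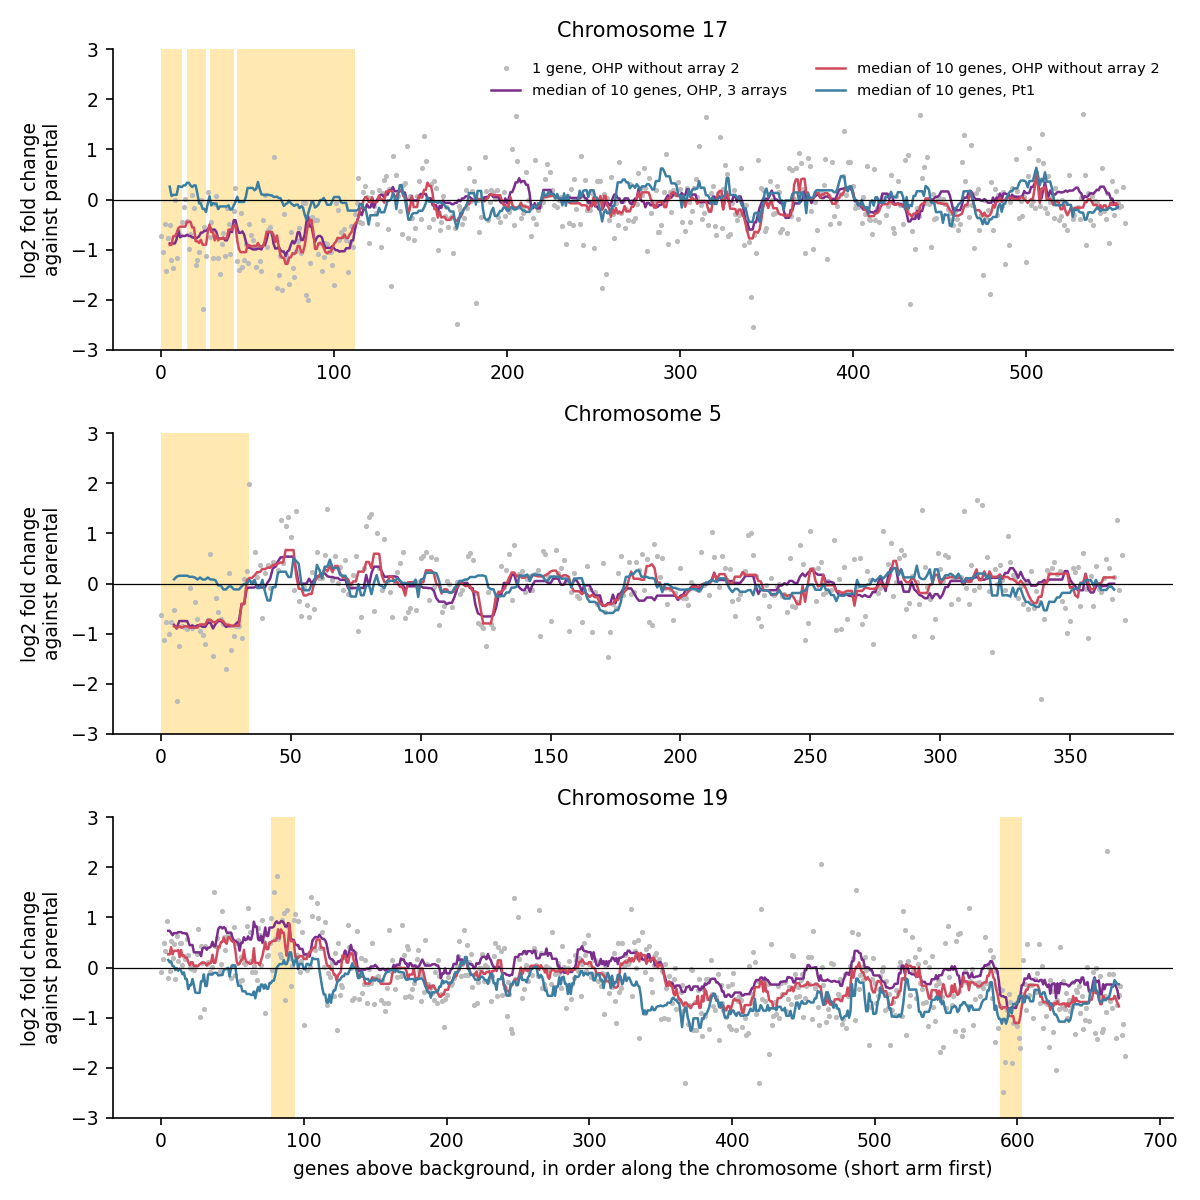
Log2 fold change against parental of genes above background, in their order along chromosomes 17, 5 and 19, with grey points for single genes in OHP without array 2 and lines for medians of 10 neighbouring genes in OHP (with and without array 2) and Pt1. The shaded stretches at the start of chromosomes 17 and 5 lie near -0.8 in OHP and near 0 in Pt1.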

How the data were processed

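Gene expression was measured on Illumina bead arrays in 3 samples each of OHP, parental and Pt1 cells. The authors deposited linear intensity values of 48803 probes, and BeadStudio is named in the submitters' processing notes without a version. The deposited intensities look quantile normalized, since the sorted arrays agree to within 1.09%, and their lowest value of 125.13 shows no subtraction of background. A second table with 9 signal columns was not used, since no label pairs its columns with samples.

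Gene symbols came from GEO's platform annotation, for 28098 probes with 1 symbol. The 13 probes with several and the 20692 without one were left out. Each gene was represented by its probe of highest mean. Of the genes, 18826 were found in the RefSeq table (GRCh38.p14), used for gene order. The normexp correction of limma 3.58.1 (R 4.3.3, offset 50) and log2 were applied, followed by lmFit and eBayes over 9 arrays (6 residual and 3.47 prior degrees of freedom), 2-sided, adjusted over 18852 genes. Python 3.11.15, pandas 2.3.3 and matplotlib 3.10.9 made tables and plots. The fit was tested on simulated data with independent noise of each gene's own spread. That simulation held no shift of a whole array, so it does not bear on the departure of OHP array 2. All of the labels' replicates were kept as separate samples, and where these are not separate cultures, p-values measure technical spread only.

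Deviations of same-numbered OHP and parental arrays from their group means correlated over genes at 0.126, 0.671 and 0.502. OHP array 1 correlated more with parental array 3 (0.435) than with parental array 1, and OHP array 3 with parental array 1 at 0.252. All other pairs of unlike number were negative, from -0.656 to -0.227. On these values replicate number was also fitted as a block on the 6 OHP and parental arrays. Its values stand beside a result where they change the call. The labels give the number alone, and the values do not single out this pairing for array 1.

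Named genes were the 15 largest rises and falls called in both fits without overlap between lines, 8 each way called only without OHP array 2, 8 each way that also differed from Pt1, up to 4 called members of each list, a set of platinum and ovarian cancer genes, and the genes farthest from the other OHP arrays on array 2. Genes of the neighbour stretches and a few further list members were chosen after their values were seen. The members and lists were chosen with earlier results of these data known. Alternatives covered background correction, normalization, probes, filter, prior, array weights, the block and leaving out arrays. Some genes are not reported here.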

Additional observations from a re-analysis of the deposited data

Results flagged for a closer look

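In 10 of 1032 genes looked at, OHP and Pt1 were both called against parental cells but in opposite directions, and the difference between the lines passed limma's test. The brighter line of each comparison was also above the ceiling. The 1032 were the members of the lists and the named genes, some of which were chosen for large changes or for differing from Pt1. Over all 18852 genes, 60 were called in opposite directions, before the further requirements. Both differences share the parental arrays, so OHP against Pt1 is the comparison given. The genes were chosen by these calls, so that their adjusted p-values of OHP against Pt1 are small follows from the choice. The cause was not tested.

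Where all arrays of a line were under the background ceiling, the fold is a lower bound, and the fitted log2 difference beside it depends on values not above background. CES1 was at least 38.1-fold higher in OHP than in Pt1 (fitted 6.17, adjusted p = 7.78e-07), with 226.3, 248.7 and 298.1 in Pt1. PPARG was at least 19.7-fold higher (fitted 5.86, adjusted p = 4.42e-07), with 207.3, 211.2 and 176.4 in Pt1. CRYAB was at least 15.2-fold higher (fitted 5.02, adjusted p = 5.42e-06), with 191.1, 272.0 and 257.9 in Pt1. KRT7, above the ceiling in both lines and at 762.0, 676.2 and 644.1 in Pt1, was 3.56 log2 units higher (SE 0.26, adjusted p = 2.66e-05).

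NES, at background in OHP, was at least 15.1-fold lower than in Pt1 (fitted -5.30, adjusted p = 8.87e-06), with 3982, 4861 and 4921 in Pt1. PEG10, an imprinted gene also at background in OHP, was at least 7.36-fold lower (fitted -4.19, adjusted p = 5.19e-07), with 2244, 2149 and 2276 in Pt1. The interferon-stimulated genes HERC6 (at least 3.55-fold lower, fitted -3.23, adjusted p = 7.78e-06) and HERC5 (at least 3.18-fold lower, fitted -2.54, adjusted p = 0.000119) were at background in OHP as well. TP53I3, a p53 target, differed by -2.99 (SE 0.28, adjusted p = 0.000146) and the cancer-testis antigen PRAME by -2.29 (SE 0.17, adjusted p = 3.13e-05). Against parental cells, TP53I3 in OHP lost its call without OHP array 1, parental array 2 or parental array 3 (adjusted p 0.0501 to 0.0637).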

How the results depend on the processing

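The counts of called genes depended on OHP array 2 and on which arrays gave the spread. Leaving out 1 array gave 188 to 1320 higher and 402 to 1828 lower genes, 176 to 588 and 355 to 776 of them at least 2-fold, and 733 to 2297 genes different between OHP and Pt1; the upper ends are without OHP array 2, and each Pt1 array moved the last count, to 770, 733 or 753. Without OHP array 2, leaving out a further array gave 546 to 1429 higher and 971 to 1890 lower genes, the lower ends resting on OHP array 1 alone, whose spread is assumed to equal that of the other lines. Array weights gave 1390 higher, 1981 lower, 444 at least 2-fold higher and 4587 different from Pt1, and omitting replicate 2 of OHP and of parental gave 1029, 1479, 473 and 2708. With only the OHP and parental arrays there were 157 higher, 324 lower and 152 at least 2-fold higher genes. Without OHP array 2 as well, 859 were higher. Such fits have fewer residual degrees of freedom and take no spread from the Pt1 arrays. Which of these lowered the counts was not tested. With all 6 of these arrays, 26 of the 170 named genes lost their call, among them ERCC1, BAX, OAS2, SOX9, KRT7 and TP53I3. With replicate number as a block on these 6 arrays 285 were higher and 511 lower, and 697 of the 1020 called genes were also called; beside the calls given with their genes, the block ended those of CD40, SPRY4, SC5D, EGLN3 and CDC25C (adjusted p 0.0605 to 0.142), and it changed no other call of a gene described. The other settings kept the counts within 1.5 times. The mean over all probes of a gene ended 10 of the named calls, among them ERCC1, ELOVL6 and ITGA6.

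Of 170 named genes 111 were called, and 81 of these kept the call under all 21 alternatives. Signs turned without OHP array 2 in DCLRE1C (-0.85), LTB4R (-1.03), ZNF223 (-1.08) and PSMC4 (1.18, and 0.68 without replicate 2 of parental as well). None of them was called with 3 OHP arrays, and each was called without array 2. In 11 further named genes the sign turned without array 2, with no call in either fit. Leaving out 1 array gave DCLRE1C -0.85 to 1.01, LTB4R -1.03 to 0.82, PSMC4 -1.0 to 1.18 and ZNF223 -1.08 to 0.94. Of 85 further probes of called named genes, 33 were called the same way, 0 the other way and 52 not, 32 of the latter at or under the ceiling. Repeats on 8 arrays and the other probes were chosen after seeing the data. Dim signal limits genes near the ceiling.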
